A study of Mus musculus and Homo sapiens with 17 samples.

Results

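Hair keratins and keratin-associated proteins (KAPs) are the structural proteins of the hair. The mouse table held 80 such genes among 54532 features with a name. They were taken by name, as every row called Krtap and the keratins Krt25 to Krt28, Krt31 to Krt36, Krt71 to Krt75 and Krt81 to Krt87, where the summed count over 11 libraries was at least 20. The set comprised 22 keratins and 58 KAPs. RNA was read from whole frozen sections of skin and skin lesions of C57BL/6-129 mice, all of which had received DMBA, a carcinogen, and TPA, a tumour promoter, according to the sample titles. There were 2 libraries of squamous cell carcinoma (SCC) labelled Dusp1 knockout (KO), 3 of papilloma labelled Dusp1 KO, 3 of wild-type (WT) SCC and 3 of WT skin, that is skin without a named lesion. The labels give no age, no allele beyond KO and WT, no stage of the hair cycle, and do not say which libraries are separate animals. The p-values below therefore measure the spread between these libraries, which may be technical.

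A hair grows from dividing matrix cells at the base of the follicle during the growth phase of the hair cycle (anagen). Cells that move up from the matrix become either the inner root sheath, a rigid tube that guides the fibre, or the hair shaft, and each layer fills with filaments made of a type I and a type II keratin. In the shaft the filaments are then embedded in KAPs, small proteins rich either in cysteine, which cross-links them by disulfide bonds, or in glycine and tyrosine. Because the section is bulk tissue, fewer cells of a follicle layer and less RNA per cell cannot be told apart in any value below.

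By role, 4 members were inner root sheath type I keratins (Krt25 to Krt28), 4 inner root sheath type II keratins (Krt71 to Krt74), 1 the keratin of the companion layer between sheath and outer root sheath (Krt75), 7 type I and 6 type II keratins of the shaft. KAPs were classed by the codons of their coding sequence. In this way 19 were high glycine-tyrosine KAPs, with at least 35% glycine and tyrosine codons, 17 were ultrahigh sulfur KAPs, with over 30% cysteine codons, and 21 were high sulfur KAPs, which had less of both. The processed pseudogene Krtap19-9a was left without a class. Of the 19 high glycine-tyrosine KAPs 4 also had over 30% cysteine codons, Krtap5-2, Krtap5-3, Krtap28-10 and Krtap28-13. The high sulfur class held what was left, with 4% to 29.8% cysteine codons. Krtap7-1, placed there, had 29.9% glycine and tyrosine codons and 9.2% cysteine codons. The class names thus follow these cut-offs and can differ from the family a KAP is assigned to by name. The median coding sequence had 86 codons in the high glycine-tyrosine class, 202 in the ultrahigh sulfur class and 168 in the high sulfur class. Genes of the set lay in clusters, 34 on chromosome 11, 25 on chromosome 16, 11 on chromosome 15, 5 on chromosome 7, 3 on chromosome 10 and 2 on chromosome 1.

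What separates the KAP classes is visible in the coding sequence, so 1 short gene of each extreme is shown, from GENCODE M21 on GRCm38, Krtap8-1 in full and Krtap17-1 over its first 300 bases. Krtap8-1 lies at chr16:89487379-89487952 on the minus strand, with 61 codons, of which 47.5% encode glycine or tyrosine (in capitals). Krtap17-1 lies at chr11:99993234-99993994 on the minus strand, with 109 codons, of which 35.8% encode cysteine (in capitals). Its share of glycine and tyrosine codons, 34.9%, was just under the 35% that would have put it in the other class.
Krtap8-1 coding sequence: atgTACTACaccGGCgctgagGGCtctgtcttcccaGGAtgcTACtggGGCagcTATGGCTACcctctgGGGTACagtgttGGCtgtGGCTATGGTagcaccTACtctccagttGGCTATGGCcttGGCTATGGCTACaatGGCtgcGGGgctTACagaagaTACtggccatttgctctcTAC
Krtap17-1 coding sequence: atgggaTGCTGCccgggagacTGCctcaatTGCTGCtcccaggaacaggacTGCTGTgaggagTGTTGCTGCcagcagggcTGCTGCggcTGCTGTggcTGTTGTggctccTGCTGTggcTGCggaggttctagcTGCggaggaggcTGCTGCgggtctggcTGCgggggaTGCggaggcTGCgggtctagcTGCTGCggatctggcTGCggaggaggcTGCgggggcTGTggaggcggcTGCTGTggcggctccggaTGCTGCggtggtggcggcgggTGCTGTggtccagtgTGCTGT

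The promoters of 4 genes are shown because their levels differed most in pattern. Krt71 and Krtap8-1 followed the main pattern of the set, and Krt84 and Krtap13 were the only members whose highest library was not WT skin 3. The windows run from 250 bases before to 50 after the start in RefSeq (GRCm38.p6), all on the minus strand: chr15:101743048-101743347 for Krt71, chr16:89487903-89488202 for Krtap8-1, chr15:101532771-101533070 for Krt84 and chr16:88751579-88751878 for Krtap13. Capitals mark the letters TATAAA, the TATA box, or their reverse complement.
Krt71 promoter: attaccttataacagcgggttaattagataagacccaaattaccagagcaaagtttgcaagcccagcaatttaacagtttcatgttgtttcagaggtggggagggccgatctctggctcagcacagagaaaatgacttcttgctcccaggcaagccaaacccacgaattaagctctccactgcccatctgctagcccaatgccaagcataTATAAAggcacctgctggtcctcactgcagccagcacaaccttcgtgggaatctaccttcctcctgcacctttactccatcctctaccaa
Krtap8-1 promoter: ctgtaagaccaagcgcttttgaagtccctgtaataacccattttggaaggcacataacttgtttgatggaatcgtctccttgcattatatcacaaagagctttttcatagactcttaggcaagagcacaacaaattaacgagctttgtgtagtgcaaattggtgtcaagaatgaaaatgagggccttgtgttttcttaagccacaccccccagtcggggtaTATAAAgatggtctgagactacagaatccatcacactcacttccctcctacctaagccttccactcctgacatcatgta
Krt84 promoter: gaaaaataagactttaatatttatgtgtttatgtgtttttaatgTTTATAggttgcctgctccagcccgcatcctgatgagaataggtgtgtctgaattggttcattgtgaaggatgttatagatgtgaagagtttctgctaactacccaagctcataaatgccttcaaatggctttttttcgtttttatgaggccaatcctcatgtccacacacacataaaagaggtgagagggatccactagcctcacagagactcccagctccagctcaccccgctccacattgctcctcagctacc
Krtap13 promoter: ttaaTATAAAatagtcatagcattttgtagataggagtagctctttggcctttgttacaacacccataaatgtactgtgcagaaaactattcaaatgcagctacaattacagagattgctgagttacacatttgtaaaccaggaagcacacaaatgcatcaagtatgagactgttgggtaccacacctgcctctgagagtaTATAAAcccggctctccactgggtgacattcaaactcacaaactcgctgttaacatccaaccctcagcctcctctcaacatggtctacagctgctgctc

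The match began 40 bases before the start in Krt71, 29 in Krtap8-1, and 49 and 246 in Krtap13. In Krt84 the only exact match was on the other strand, 206 bases before the start, and inexact matches were not sought in any gene. Over the set, 66 of 80 members had a promoter in the RefSeq table, and 40 of those 66 (60.6%) held TATAAA on the strand of the gene between 20 and 45 bases before the start, against 639 of 27025 promoters in the table (2.36%). On either strand and anywhere in the window TATAAA was found in 81.8% of member promoters and in 14.2% of all. The letters CTTTGAA, which LEF1 and TCF factors bind, stood in 14 of 66 member promoters (21.2%) and in 5.27% of all promoters, on either strand, and do not overlap TATAAA. Many members are copies of each other within a cluster, so their promoters are not independent.

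The targeted gene was read first. Dusp1 was at 109 to 174 CPM (counts per 1e6 counts of the scaled library) in the 5 libraries labelled KO and at 52.4 to 109 CPM in the 6 WT libraries, so its RNA was not lower in the libraries with the KO label, and every direction below is that of the labels. Counts per gene cannot tell which part of Dusp1 was read. Libraries held 34.4 to 47.9 M counts, at which 3 counts, taken as the limit for a gene at 0, correspond to 0.0529 to 0.0871 CPM and cover counting error only. The keratinocyte markers Krt5, Krt14, Krt1, Krt10, Trp63 and Itga6, which check the labelled cell type, summed to 45600 and 49000 CPM in KO SCC, 39700 to 63900 in KO papilloma, 36200 to 38300 in WT SCC and 7270 to 16700 in WT skin. Markers of skeletal muscle summed to 5.46 to 125 CPM in the lesions and to 5470 to 7470 CPM in WT skin, and the part of this difference in tissue in the comparisons with WT skin was not tested. Counts of 4 Y chromosome genes were found in KO SCC 2, WT skin 1 and WT skin 2, at 119, 164 and 192 CPM, and in WT skin 3 at 0.123 CPM, so KO SCC and WT skin each held more than 1 animal. KO SCC 2 held 15.3 CPM of Xist beside its Y chromosome counts, against 203 CPM in KO SCC 1 and 0.0745 and 0.705 CPM in WT skin 1 and 2. KO SCC 2 was also the KO SCC library with more hair gene counts, and the part of this in the results of KO SCC was not tested. All WT SCC and KO papilloma libraries had 0 CPM of these Y chromosome genes, with Xist at 404 to 497 and 227 to 300 CPM. In these genes of sex both groups thus differed from WT skin 1 and 2. The part of sex in the comparisons with WT skin was not tested.

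The level of the set differed by orders of magnitude between libraries, and most of all within WT skin. Summed over the 80 members it was 14.2 and 58.7 CPM in KO SCC, 986, 377 and 19.9 CPM in KO papilloma, 4.97, 3.52 and 6.29 CPM in WT SCC, and 67.2, 2440 and 15000 CPM in WT skin. WT skin 3 alone held 79.1% of all CPM of the set, 1.5% of its own library, and WT skin 2 held 12.8% of the set. The WT SCC libraries were the lowest of all, and KO papilloma 3 and both KO SCC libraries lay between them and WT skin 1. The 3 skin libraries also differed in other tissue. In WT skin 1, 2 and 3, fibroblast markers summed to 36400, 18800 and 4740 CPM and markers of interfollicular epidermis to 15200, 18200 and 8490 CPM. Xist was at 382 CPM in WT skin 3, against 0.0745 and 0.705 CPM in WT skin 1 and 2. The part of these differences in the hair gene levels was not tested.

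**Figure D1:**
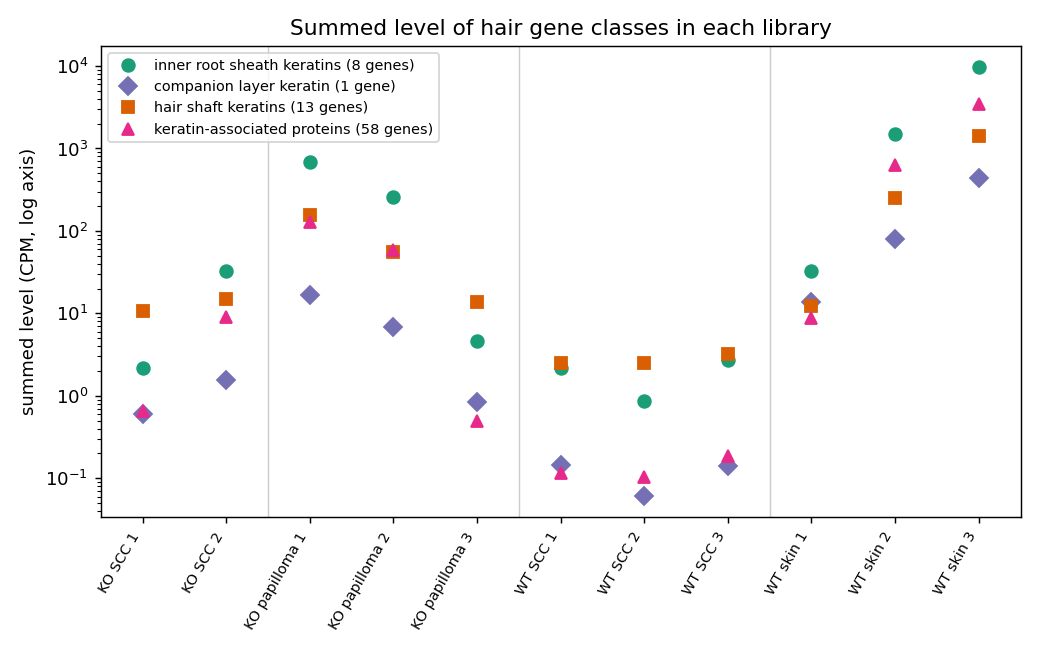
Summed CPM of the 4 kinds of hair gene (log axis) in each of the 11 libraries; each symbol is 1 class in 1 library, with no averaging. All 4 kinds were highest in WT skin 3, and the KAPs of the 3 WT SCC libraries summed to 0.103 to 0.186 CPM.

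Members at 0 were most in WT SCC and KO papilloma 3. Of 80 members, 60 and 19 were at 0 in the KO SCC libraries, 4, 4 and 64 in the KO papillomas, 65, 67 and 65 in the WT SCC libraries, and 51, 0 and 0 in WT skin. In KO SCC 19 members, 18 of them KAPs, had no count in any library, in KO papilloma only Krtap19-2, in WT SCC 60 members, of which 55 were KAPs and 5 keratins, and in WT skin none. All KAPs together had 4, 5 and 8 counts in the WT SCC libraries.

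**Figure D2:**
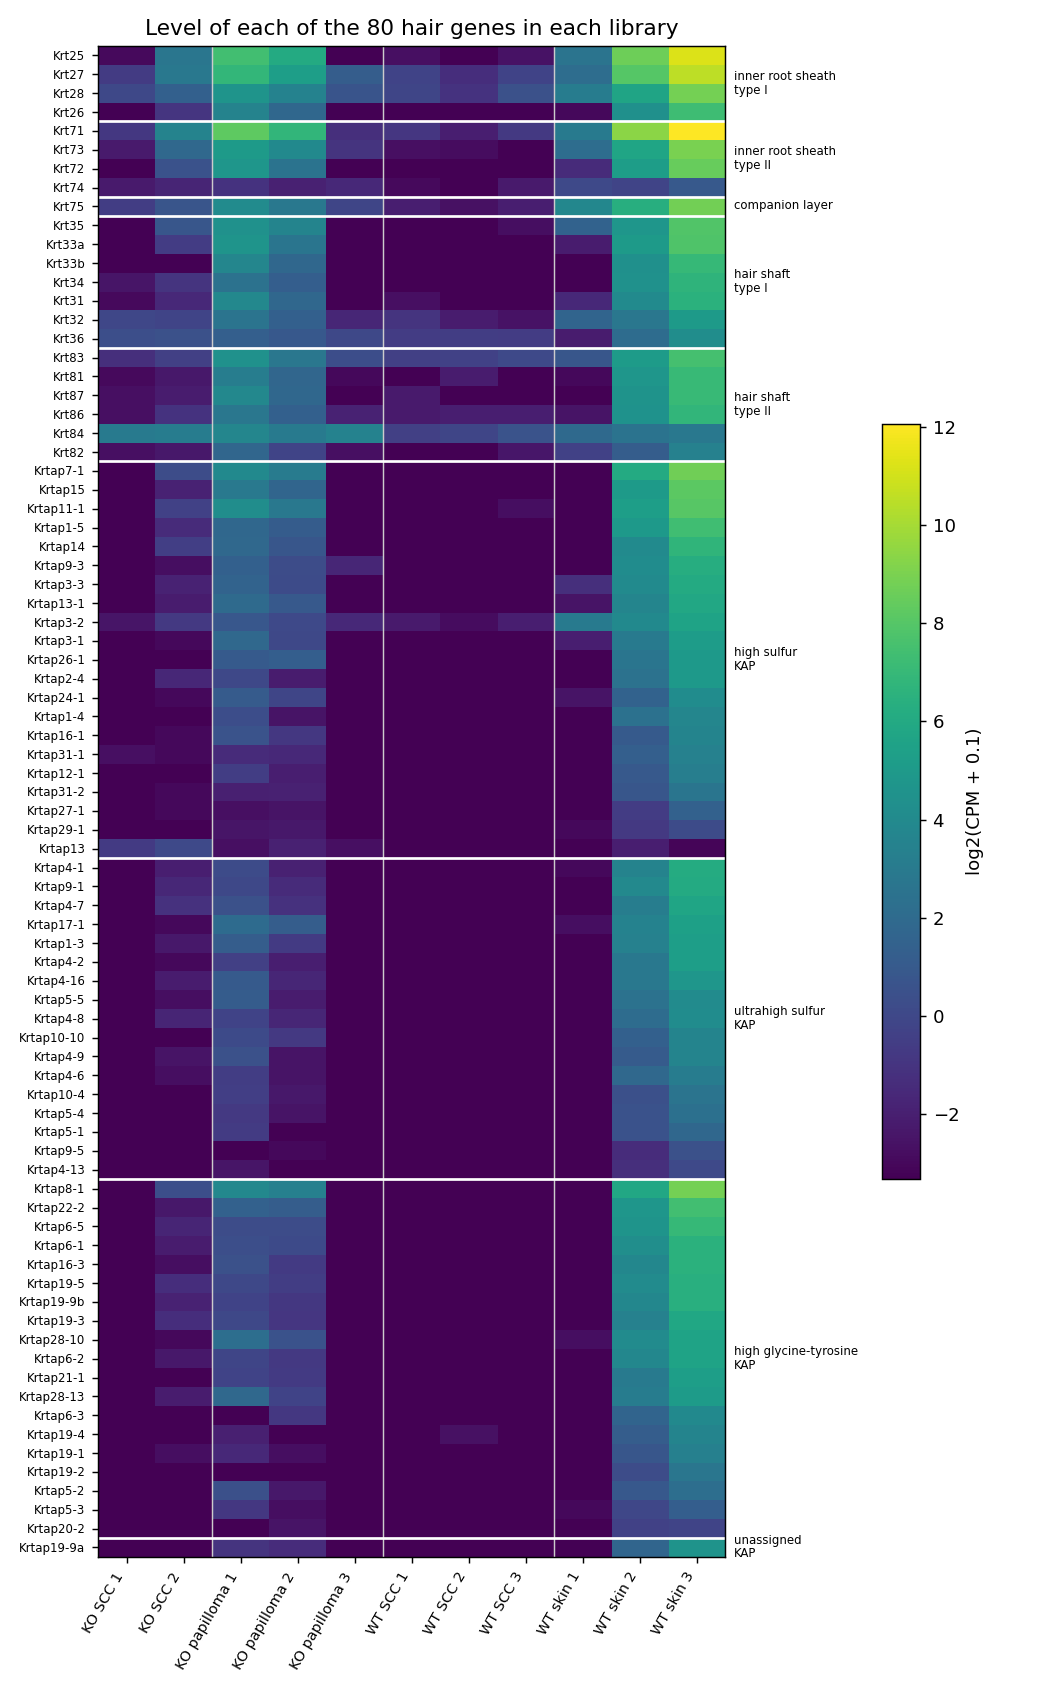
Level of every member as log2(CPM + 0.1), members in rows by class and libraries in columns. KO SCC 2 shows 61 of 80 at low level, KO papilloma 1 and 2 show 76 each, WT skin 2 and 3 show all, and Krt84 is present in all libraries.

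The inner root sheath keratins carried most of the signal in the 5 libraries with counts for most members. Krt71, their main type II partner, was at 0.462 and 11.6 CPM in KO SCC, 303, 112 and 0.315 CPM in KO papilloma, 0.436, 0.144 and 0.489 CPM in WT SCC, and 7.72, 660 and 4270 CPM in WT skin. Krt25, a type I partner, was at 0.0289 and 6.46 CPM in KO SCC, 169, 67.8 and 0 CPM in KO papilloma, 0.0581, 0 and 0.0699 CPM in WT SCC, and 6.03, 401 and 2420 CPM in WT skin. For both genes WT SCC lay below all WT skin libraries, while KO SCC and KO papilloma overlapped WT skin. Per kb of the longest annotated transcript, Krt71, Krt25 and Krt27 were the 3 highest members of WT skin 3, at 1950, 1220 and 957 CPM per kb, ahead of the KAPs Krtap8-1 and Krtap7-1 at 800 and 687 CPM per kb. The 8 inner root sheath keratins made up 56.4% of the set's CPM in KO SCC 2, 69.5% and 67.8% in KO papilloma 1 and 2, and 60.7% and 64.3% in WT skin 2 and 3. In the other 6 libraries they made up 15.5% in KO SCC 1, 23.5% in KO papilloma 3, 24.6% to 43.9% in WT SCC and 48.3% in WT skin 1, and in all of these but WT skin 1 the shaft keratins held more, 50.9% to 75.6%.

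Krt27 and Krt28, the other abundant type I sheath keratins, kept counts in every library. Krt27 was at 0.548 and 7 CPM in KO SCC, 116, 39.7 and 2.2 CPM in KO papilloma, 0.755, 0.309 and 0.745 CPM in WT SCC, and 4.47, 255 and 1480 CPM in WT skin. Krt28 was at 0.924 and 2.53 CPM in KO SCC, 25.1, 11 and 1.52 CPM in KO papilloma, 0.842, 0.371 and 1.28 CPM in WT SCC, and 8.57, 50.6 and 465 CPM in WT skin. Both overlapped between KO papilloma and WT skin. Krt26, Krt72 and Krt73 had highest levels of 157, 356 and 496 CPM, all in WT skin 3, and Krt26 and Krt72 had no count in WT SCC. Krt74, annotated in mouse as a transcribed unitary pseudogene, did not follow its neighbours in size: it was at 0.115 and 0.199 CPM in KO SCC, 0.372, 0.17 and 0.236 CPM in KO papilloma, 0.029, 0 and 0.116 CPM in WT SCC, and 0.968, 0.806 and 1.83 CPM in WT skin. All of its lesion libraries lay below all of its WT skin libraries.

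Krt75, the companion layer keratin, was at 0.606 and 1.56 CPM in KO SCC, 16.8, 6.91 and 0.839 CPM in KO papilloma, 0.145, 0.0618 and 0.14 CPM in WT SCC, and 13.7, 80.6 and 439 CPM in WT skin. It was the most abundant member of WT skin 1, where it made up 20.3% of the set's CPM, against 3.31% and 2.93% in WT skin 2 and 3.

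Among the shaft keratins the early type I keratin Krt35 was at 0 and 1.64 CPM in KO SCC, 21.5, 12 and 0 CPM in KO papilloma, 0, 0 and 0.0466 CPM in WT SCC, and 2.76, 27.1 and 234 CPM in WT skin. Krt31, Krt33a, Krt33b and Krt34, the type I keratins of the cortex, reached 5.5 to 25.3 CPM in KO papilloma 1 and 92.1 to 225 CPM in WT skin 3, and had 2 counts between them in WT SCC. Krt81, Krt83, Krt86 and Krt87, their type II partners, reached 6.62 to 22 CPM in KO papilloma 1 and 112 to 181 CPM in WT skin 3. Krt83 differed from the others in WT SCC, where it was at 0.639, 0.68 and 0.932 CPM, against 1.66, 34.7 and 181 CPM in WT skin. Members of these families share long identical stretches: 23 members of the set share over 20% of their 50-base words with other genes. In position, 8 members overlap another gene. The split of reads among close copies is therefore uncertain. The cuticle keratins Krt32 and Krt82 were lower, with 33.9 and 10.8 CPM in WT skin 3.

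KAPs were seen mainly in 5 libraries: of 58, 18 were at 0 in KO SCC 2, 4 each in KO papilloma 1 and 2 and none in WT skin 2 and 3, against 48 in WT skin 1 and 55 to 57 in the other 5 libraries. Krtap8-1, the high glycine-tyrosine KAP shown above, was at 0 and 1.17 CPM in KO SCC, 14.7, 10.1 and 0 CPM in KO papilloma, 0 in all 3 WT SCC libraries, and 0, 59.7 and 459 CPM in WT skin. The next 5 of its class by summed count, Krtap22-2, Krtap6-5, Krtap6-1, Krtap16-3 and Krtap19-5, were at 0 in both KO SCC 1 and WT skin 1 and at 0.903 to 2.63 CPM in KO papilloma 1, against 82.6 to 167 CPM in WT skin 3. The most counted high sulfur KAPs were Krtap7-1, Krtap15, Krtap11-1, Krtap1-5, Krtap14 and Krtap9-3, with 2.58 to 18.2 CPM in KO papilloma 1 and 75.2 to 427 CPM in WT skin 3. Those of the ultrahigh sulfur class were Krtap4-1, Krtap9-1, Krtap4-7, Krtap17-1, Krtap1-3 and Krtap4-2, with 0.664 to 4.04 CPM in KO papilloma 1 and 40 to 71.7 CPM in WT skin 3. Krtap15 and Krtap14 overlap on opposite strands, and without a known strand setting their reads cannot be told apart.

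WT SCC was set against WT skin first, the pair of groups with the same genotype label. All 8 inner root sheath keratins, Krt75, all 13 shaft keratins and 57 of the 58 KAPs were called lower in WT SCC, 79 members in all, and none was called higher (edgeR's quasi-likelihood test, Benjamini-Hochberg adjusted p from 0.000188 to 0.045 over 22371 genes). Of all genes tested, 23.6% were called lower and 16.9% higher. The median log2 fold change of the members was -11.43 as fitted and -7.75 with groups at 0 set at 3 counts per library, against -0.16 over all genes. All 80 members passed the filter on low counts. For 79 the counts of WT skin 2 and 3, at least 10 in each, were enough, so members at 0 elsewhere had to differ from those libraries. Krtap13, with 7 and 1 counts there, passed through KO SCC, the group in which it is called higher below.

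Single genes showed how far the fall went. Krt71 was lower by -12.19 ± 2.86 (log2 fold change ± SE, adjusted p = 0.00631) and Krt28, which kept counts in WT SCC, by -7.73 ± 1.57 (adjusted p = 0.00285). Krtap8-1, with no count in WT SCC, was at least 2370-fold lower there with those libraries set at 3 counts each (adjusted p = 0.0162). The groups did not overlap for 26 of the 80 members, all lower in WT SCC, against 29.9% of all genes lower without overlap; for the others WT skin 1 was as low as a WT SCC library. Krtap3-2 had the smallest adjusted p of the set (-7.93 ± 1.04, adjusted p = 0.000188). Without both WT skin 2 and WT skin 3, a setting chosen after the data were seen, 8 members were called lower, and a fit of these 2 groups alone called 16.

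Krtap3-2, a high sulfur KAP, was the KAP that WT skin 1 also held. It was at 0.0866 and 0.497 CPM in KO SCC, 1.7, 0.949 and 0.236 CPM in KO papilloma, 0.116, 0.0412 and 0.14 CPM in WT SCC, and 7.92, 15.5 and 49.2 CPM in WT skin. Every WT skin library lay above every lesion library. It was lower in KO SCC by -6.32 ± 1.11 (adjusted p = 0.000958) and in KO papilloma by -4.65 ± 0.83 (adjusted p = 0.0013), both against WT skin with edgeR's test, and these calls held in every alternative run, although those that left 1 library in a group took its spread from the other groups. Its neighbours Krtap3-1 and Krtap3-3 were at 0.149 and 0.323 CPM in WT skin 1. Krtap3-2 shares 28.9% of its 50-base words with other genes, most of all with Krtap3-3.

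KO papilloma was next compared with WT skin. There 17 of 80 members were called lower and 1 higher (edgeR's quasi-likelihood test, largest adjusted p 0.0481), against 22.4% of all genes called lower and 17.1% higher, so the share of members called lower was close to that of all genes. The median log2 fold change was -3.92 in the set and -0.22 over all genes, with 41 members at an unadjusted p under 0.05. The groups did not overlap for Krtap3-2, Krt74 and Krt84 only, against 28.4% of all genes lower without overlap and 21.1% higher, because KO papilloma 1 and 2 held more of nearly all members than WT skin 1. The call count rested on single libraries: it was 5, 2 and 2 without KO papilloma 1, 2 and 3, and 64, 9 and 2 without WT skin 1, 2 and 3.

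By class, 10 of the 17 lower calls fell on the 19 high glycine-tyrosine KAPs, 3 on the 17 ultrahigh sulfur KAPs (Krtap4-1, Krtap4-2 and Krtap9-1), and the others were Krtap3-2, Krt28, Krt74 and Krt75. Krtap19-2 was at 0 in all KO papillomas and at 0, 1.09 and 6.56 CPM in WT skin, at least 33-fold lower with the papillomas set at 3 counts each (adjusted p = 0.0382). Of the other 9, those with the largest fitted changes were Krtap19-4 (-6.46 ± 1.91, adjusted p = 0.0225), Krtap19-9b (-6.29 ± 1.92, adjusted p = 0.029) and Krtap6-5 (-6.11 ± 1.91, adjusted p = 0.0318). The calls of these 3 genes were lost with DESeq2, with replicate number as a block, and without KO papilloma 2 or 3. That of Krt74 was lost whichever library of the 2 groups was left out. No shaft keratin was called lower, with a median log2 fold change of -2.98 for type I and -3.0 for type II, against -5.33 for the high glycine-tyrosine KAPs. Krt75 was lower by -4.44 ± 1.18 (adjusted p = 0.0119) and Krt71, at -3.57 ± 1.92, was not called (adjusted p = 0.161).

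The make-up of the set was read as shares of its CPM. KAPs were 15.4% in KO SCC 2, 12.9% and 15.5% in KO papilloma 1 and 2, and 13%, 25.8% and 23.4% in WT skin 1, 2 and 3. Shaft keratins were 25.5% in KO SCC 2, 16% and 14.9% in KO papilloma 1 and 2, and 18.4%, 10.2% and 9.4% in WT skin. The lesion libraries thus differed from WT skin 2 and 3, while WT skin 1 lay among them for both shares. The KAP share of WT skin 1 rested on 1 gene, however. Krtap3-2 made up 7.92 of the 8.71 CPM of its KAPs, and 48 of 58 KAPs were at 0 there. The shaft share of KO SCC 2 rested on Krt84: without Krt84 and Krtap13 shaft keratins were 12.8% in KO SCC 2, 14.8% and 13.1% in KO papilloma 1 and 2, and 13.6%, 9.97% and 9.36% in WT skin. These lesion libraries were picked by their hair gene content, so no test was made.

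Gene by gene, the difference in log2(CPM + 0.1) of KO papilloma 1 minus WT skin 3 had a median of -5.72 over the high glycine-tyrosine KAPs, -4.34 over the high sulfur and -3.70 over the ultrahigh sulfur KAPs, -3.79 and -3.78 over the sheath type I and II keratins, and -3.15 and -3.17 over the shaft type I and II keratins. For KO papilloma 2 minus WT skin 3 the same medians were -6.11, -5.27, -5.82, -5.31, -5.11, -4.70 and -5.20. The high glycine-tyrosine class had the lowest median in both papillomas, and the ultrahigh sulfur class changed its place. Against WT skin 2 it was again lowest in KO papilloma 1, at -3.27, while in KO papilloma 2 the ultrahigh sulfur KAPs, at -3.88, lay below it, at -3.57. In KO SCC 2 minus WT skin 3 the high glycine-tyrosine KAPs, at -7.70, did not have the lowest median. The companion layer keratin (-8.04) and the medians of sheath type I (-7.97), shaft type II (-7.93) and shaft type I keratins (-7.71) lay below it. In KO SCC 2, however, 18 of 58 KAPs were at 0. For a gene at 0 the added 0.1 CPM limits how low the difference can go, so this order cannot be set against that of the papillomas. WT skin 3 minus WT skin 2, a difference of level within a group, gave 1.94 to 2.95 for all classes.

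**Figure D3:**
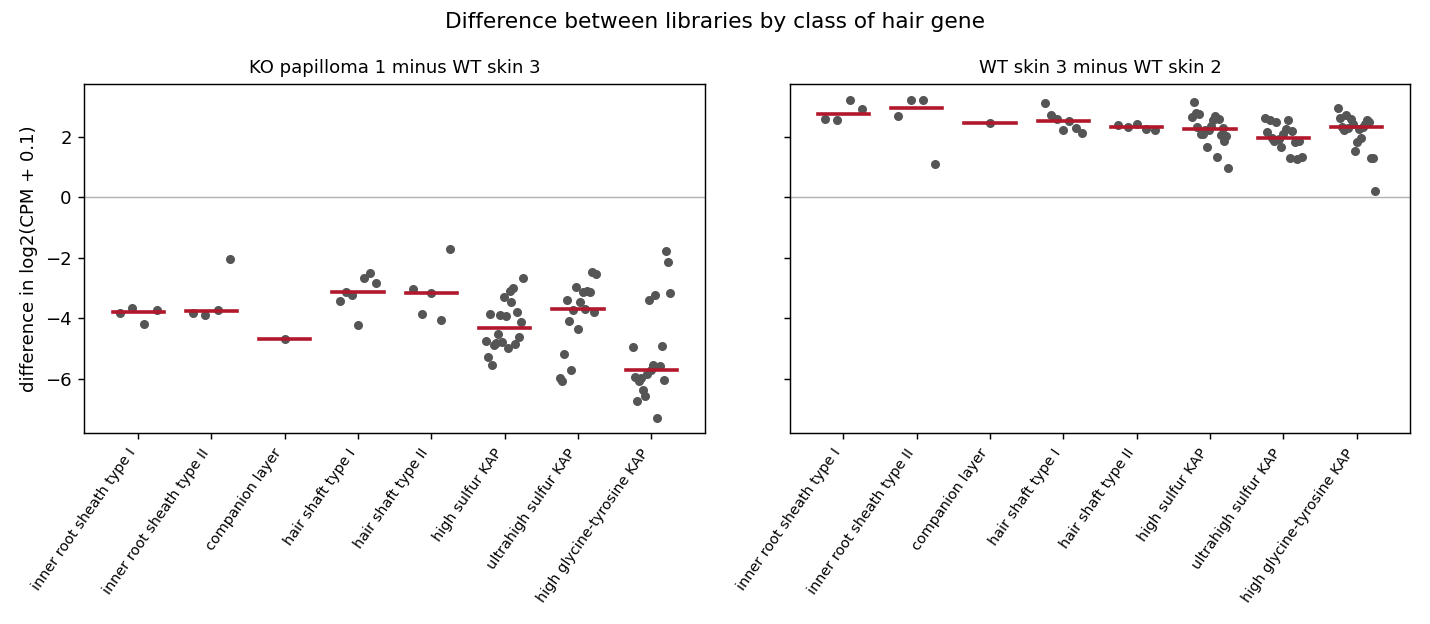
Difference in log2(CPM + 0.1) for each member but Krt84, Krtap13 and the pseudogene Krtap19-9a, by class, for KO papilloma 1 minus WT skin 3 and for WT skin 3 minus WT skin 2; points are genes and lines are class medians. The high glycine-tyrosine KAPs had the lowest median, -5.72, in the first panel, and the class medians of the second panel lay between 1.94 and 2.95.

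Over keratins and KAPs together, transcript length and base content moved with these differences, more in KO papilloma 1 than in KO papilloma 2. The median longest transcript had 594 bases in the high glycine-tyrosine class and 1664 in the shaft type I class, and median GC content of the transcript was 47.1% and 55.8%. Across 78 genes Spearman's rho between the difference and transcript length was 0.548 for KO papilloma 1 minus WT skin 3, 0.392 for KO papilloma 2 minus WT skin 3 and 0.145 for WT skin 3 minus WT skin 2, and rho with GC content was 0.64, 0.288 and -0.202. For KO SCC 2 minus WT skin 3 it was 0.0583 with length and 0.254 with GC content. Against WT skin 2, rho with length was 0.705 in KO papilloma 1, 0.46 in KO papilloma 2 and 0.149 in KO SCC 2, and rho with GC content was 0.612, 0.179 and 0.199 for the same libraries. Within 57 KAPs, without Krtap13, rho against WT skin 3 with length was 0.541 in KO papilloma 1, 0.292 in KO papilloma 2 and 0.312 in KO SCC 2. With GC content it was 0.621, 0.198 and 0.415. Against WT skin 2, KO papilloma 2 gave 0.196 with length and 0.0312 with GC content. KO papilloma 1 gave 0.541 and 0.606, and KO SCC 2 gave 0.275 and 0.315. WT skin 3 minus WT skin 2 gave -0.256 and -0.371. Genes of a class share sequence and are not independent, so these values describe the libraries, and the part of length and base content in the class differences was not tested.

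The rank of genes within a library was similar where hair genes were present. Across the 80 genes Pearson's r of log2(CPM + 0.1) was 0.927 between KO papilloma 1 and 2, 0.978 between WT skin 2 and 3, and 0.833 to 0.874 between these papillomas and these skins. KO SCC 2 had 0.748 and 0.803 with KO papilloma 1 and 2, and 0.671 and 0.609 with WT skin 2 and 3. Its counts are lower, with 46 members above 3 counts, and the part of counting error in its lower r was not tested.

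KO SCC against WT skin gave 53 members called lower and 1 higher (edgeR's quasi-likelihood test, largest adjusted p of the lower calls 0.0499), against 24.3% and 20.5% of all genes. The median log2 fold change was -8.15 as fitted, -7.35 with groups at 0 set at 3 counts per library, and -0.30 over all genes. Lower calls took in 3 of 4 sheath type I and 3 of 4 sheath type II keratins, Krt75, 4 of 7 shaft type I and 5 of 6 shaft type II keratins, 13 of 19 high glycine-tyrosine, 16 of 21 high sulfur and 7 of 17 ultrahigh sulfur KAPs, and Krtap19-9a. Krt75 was lower by -7.33 ± 1.67 (adjusted p = 0.00447), Krt83 by -7.21 ± 1.92 (adjusted p = 0.0104) and Krt71 by -8.08 ± 2.88 (adjusted p = 0.0401). The call of Krt71 was lost with replicate number as a block, with only these 2 groups fitted, and without WT skin 2 or 3. The groups did not overlap for 16 lower members and 2 higher ones, against 36.3% and 28.3% of all genes. With only 2 KO SCC libraries the count depended on each: it was 1 without KO SCC 1 and 2 without KO SCC 2, 78 without WT skin 1, 31 without WT skin 2 and 16 without WT skin 3, and 2 without both WT skin 2 and 3.

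Between the lesions labelled KO, no member was called in KO SCC against KO papilloma (edgeR's quasi-likelihood test, smallest adjusted p 0.27), where 0.237% of all genes were called lower and 0.0492% higher. The median log2 fold change of the members was -3.88, or -3.33 with groups at 0 set at 3 counts per library, and 3 members had an unadjusted p under 0.05. DESeq2 called no member, and edgeR without its filter on low counts called 19 lower. Krt83, at 0.317 and 0.646 CPM in KO SCC and 22, 6.62 and 1.13 CPM in KO papilloma, and Krtap9-3 were the 2 members lower without overlap, against 15.5% of all genes. Within KO papilloma the libraries themselves ran over orders of magnitude, since Krt71 was at 303, 112 and 0.315 CPM.

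KO SCC against WT SCC is the pair with the same lesion and different genotype labels. Here 2 members were called higher, Krt84 and Krtap13, and none lower (edgeR's quasi-likelihood test), against 4.48% of all genes called higher and 3.38% lower. Groups did not overlap for 8 members, all higher in KO SCC (Krt32, Krt34, Krt36, Krt73, Krt75, Krt84, Krtap13 and Krtap31-1), against 22.9% of all genes higher and 23.7% lower without overlap. The median log2 fold change of 3.19 became 1.63 with groups at 0 set at 3 counts per library. Without any 1 of the 5 libraries only Krt84 was called. Krt71, at 0.462 and 11.6 CPM in KO SCC and 0.436, 0.144 and 0.489 CPM in WT SCC, was not called (4.11 ± 2.37, adjusted p = 0.314).

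Krt84, a type II hair keratin that is known from the tongue's filiform papillae and the nail besides hair, went its own way. It was at 7.99 and 8.72 CPM in KO SCC, 13.5, 7.79 and 11.3 CPM in KO papilloma, 0.639, 0.824 and 1.42 CPM in WT SCC, and 3.7, 5.64 and 6.98 CPM in WT skin. All 5 lesion libraries labelled KO lay above all WT skin libraries, and all WT SCC libraries lay below them, so no lesion group overlapped WT skin. In edgeR's quasi-likelihood test Krt84 was higher in KO SCC than in WT SCC by 3.11 ± 0.38 on the log2 scale (adjusted p = 0.00146), a call kept in all 10 alternatives run. It was higher in KO papilloma than in WT skin by 1.0 ± 0.32 (adjusted p = 0.0305), a call lost without WT skin 1 or 2 or without KO papilloma 1 or 3. WT SCC was lower than WT skin by -2.49 ± 0.35 (adjusted p = 0.00029), and the difference of KO SCC from WT skin, 0.62 ± 0.36, was not called (adjusted p = 0.178). Krt84 shared none of its 50-base words with another gene. Krt84 made up 74.7% and 58.1% of the shaft keratin CPM in KO SCC, 8.57%, 13.9% and 81.9% in KO papilloma, 25.3% to 43.6% in WT SCC, and 29.9%, 2.27% and 0.495% in WT skin. Without it the 12 other shaft keratins summed to 2.71 and 6.28 CPM in KO SCC, 144, 48.3 and 2.52 CPM in KO papilloma, 1.89, 1.67 and 1.84 CPM in WT SCC, and 8.66, 243 and 1400 CPM in WT skin.

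**Figure D4:**
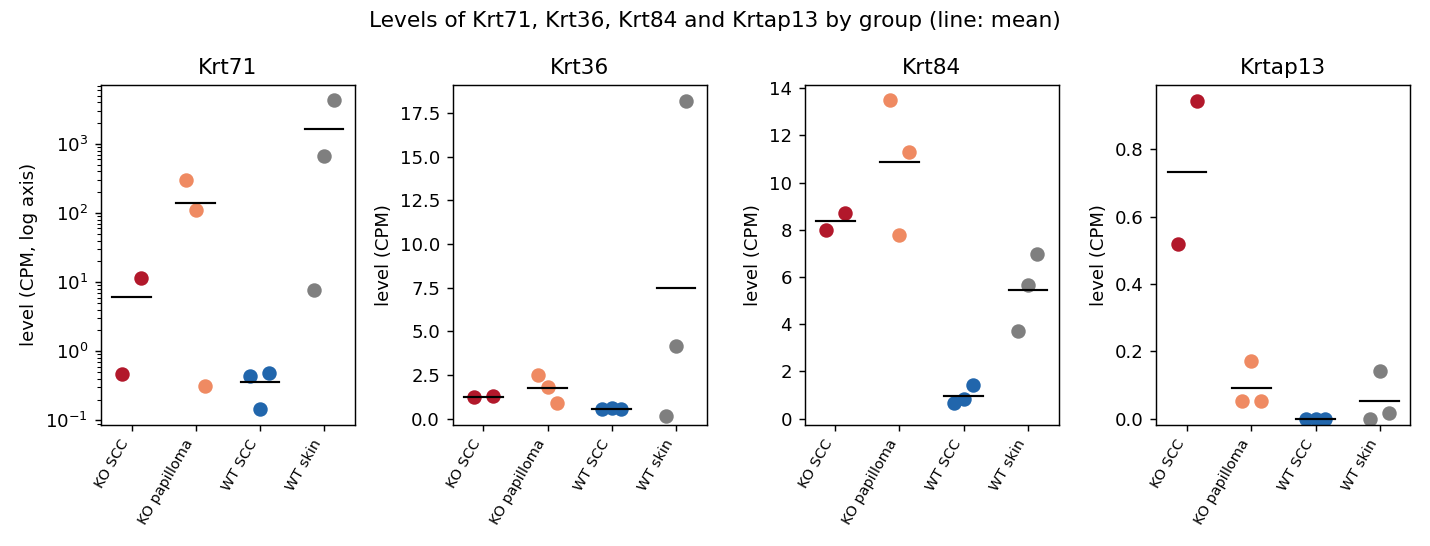
CPM of 4 members by group, with 1 point per library and a line at the group mean (log axis for Krt71, linear for the others). Krt84 was at 7.79 to 13.5 CPM in the 5 libraries labelled KO, and Krtap13 had no count in WT SCC.

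Krt84 lies at chr15:101525026-101532820 on the minus strand, amid the type II hair keratins, with Krt82 at 17 kb on one side and Krt83 at 40.6 kb on the other, between midpoints. Krt82 was at 0.0577 and 0.0993 CPM in KO SCC, 3.21, 0.803 and 0.0524 CPM in KO papilloma, 0, 0 and 0.0932 CPM in WT SCC, and 0.67, 2.22 and 10.8 CPM in WT skin. Neither it nor Krt83 was called between KO SCC and WT SCC (Krt82 1.25 ± 2.13, adjusted p = 0.777; Krt83 -0.62 ± 1.77, adjusted p = 0.88).

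Krt36 is a type I hair keratin that is also known from the tongue. It was at 1.21 and 1.29 CPM in KO SCC, 2.47, 1.82 and 0.917 CPM in KO papilloma, 0.552, 0.597 and 0.559 CPM in WT SCC, and 0.124, 4.15 and 18.2 CPM in WT skin. WT skin 1 was the lowest of all 11 libraries, so every lesion group overlapped WT skin. Both KO SCC libraries lay above the WT SCC libraries, but the difference was not called (1.13 ± 1.16, adjusted p = 0.608), and WT SCC was called lower than WT skin (-3.72 ± 1.12, adjusted p = 0.0211).

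Krtap13, a high sulfur KAP, was at 0.519 and 0.944 CPM in KO SCC, 0.0531, 0.17 and 0.0524 CPM in KO papilloma, 0 in all 3 WT SCC libraries, and 0, 0.141 and 0.0176 CPM in WT skin. Its 75 counts in all fell to 18 and 38 in KO SCC, 2, 7 and 2 in KO papilloma and 0, 7 and 1 in WT skin, and the KO SCC libraries lay above all others. In edgeR's test it was at least 10-fold higher in KO SCC than in WT SCC, with the WT SCC libraries set at 3 counts each (adjusted p = 0.0305), and 3.70 ± 1.29 higher on the log2 scale than in WT skin (adjusted p = 0.0435). Leaving out any single library of KO SCC or WT SCC ended the first call, and the second was lost without WT skin 1, WT skin 3 or either KO SCC library. Krtap13 shares 24.9% of its 50-base words with other genes, most of all with 2310057N15Rik, a neighbour that had no count in KO SCC.

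Krtap13 lies at chr16:88750744-88751635 on the minus strand in the KAP cluster of chromosome 16. Other genes of this stretch were read after the values of Krtap13 were seen. 2310034C09Rik, 8.13 kb away between midpoints, was at 0.75 and 2.09 CPM in KO SCC, 0.292, 0.17 and 0.315 CPM in KO papilloma, 0 in all WT SCC libraries, and 0, 0.0201 and 0.0529 CPM in WT skin. 2310061N02Rik, 43.6 kb away, was at 4.94 and 19.7 CPM in KO SCC, 3.51, 1.05 and 2.44 CPM in KO papilloma, 0 in all WT SCC libraries, and 0, 0.624 and 4.87 CPM in WT skin. Both were called higher in KO SCC than in WT SCC (edgeR's test, adjusted p = 0.00727 and 0.0226). They are 2 of 5 tested genes picked for this reading, and 4.48% of all genes were called higher in this comparison. The other 3 were not called. 2310079G19Rik was at 0.0289 and 0 CPM in KO SCC (adjusted p = 0.591). 1110025L11Rik, farther off, was at 0 and 0.0497 CPM (adjusted p = 0.803), and neither had a count in WT SCC. The third, Krtap13-1, a member 22 kb away, followed the set, at 0 and 0.124 CPM in KO SCC, 3.93, 1.85 and 0 CPM in KO papilloma, 0 in WT SCC, and 0.0745, 12.6 and 59.3 CPM in WT skin. All other members between Krtap24-1, 140 kb away, and Krtap19-9b, 181 kb away on the other side, these included, were not called between KO SCC and WT SCC.

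Outside the set, genes with the pattern most like the mean of the members over the 11 libraries were mainly gene models of the same clusters. Among 15364 genes with an average log2 CPM of at least 0, Gm10229 had the highest Pearson's r (0.995), and Gm11938, Gm11937, Gm11562, Gm11565 and Tchh followed at 0.994 to 0.992. Tchh, trichohyalin, which hardens the inner root sheath, was at 4.94 and 19.5 CPM in KO SCC, 186, 71.2 and 7.76 CPM in KO papilloma, 9.52, 10.3 and 9.34 CPM in WT SCC, and 9.24, 475 and 3310 CPM in WT skin. KO papilloma 1 and 2 and WT skin 2 and 3 held most of its counts, as they did for the set. Of 13 other shaft and sheath genes 6 were called lower and 3 higher in KO SCC than in WT skin, 2 lower and 2 higher in KO papilloma, and 9 lower and 2 higher in WT SCC, beside 24.3%, 22.4% and 23.6% of all genes called lower and 20.5%, 17.1% and 16.9% higher. In WT SCC Tchh was lower by -7.02 ± 1.76 (adjusted p = 0.00899). Tgm3, the transglutaminase that cross-links trichohyalin and is also active in the epidermis, went the opposite way. It was at 1620 and 2750 CPM in KO SCC, 1750, 771 and 1530 CPM in KO papilloma, 286, 243 and 279 CPM in WT SCC, and 7.87, 43.1 and 20.1 CPM in WT skin, higher in KO SCC than in WT SCC by 3.02 ± 0.56 (adjusted p = 0.0107).

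Of 14 regulators of the hair matrix, 7 were called lower and 2 higher in KO SCC than in WT skin, 8 lower and 1 higher in KO papilloma, and 8 lower and 2 higher in WT SCC. Of all genes, 24.3%, 22.4% and 23.6% were called lower in these comparisons, and 20.5%, 17.1% and 16.9% higher. Hoxc13, the homeobox factor that is required for hair keratin expression, was at 0.895 and 0.522 CPM in KO SCC, 4.84, 3.19 and 4.59 CPM in KO papilloma, 1.13, 1.56 and 1.09 CPM in WT SCC, and 2.68, 11.2 and 55.4 CPM in WT skin. It was lower than in WT skin by -5.03 ± 1.09 in KO SCC (adjusted p = 0.00336), -2.46 ± 0.79 in KO papilloma (adjusted p = 0.0292) and -4.19 ± 0.86 in WT SCC (adjusted p = 0.00305). KO papilloma 3, at 19.9 CPM of the set, was within the range of KO papilloma 1 and 2 for Hoxc13. All KO papillomas lay above WT skin 1 for this gene and below WT skin 2 and 3. Lef1, the Wnt effector of the matrix, was at 0.664 and 0.77 CPM in KO SCC, 1.28, 1.12 and 0.944 CPM in KO papilloma, 0.871, 0.618 and 1.02 CPM in WT SCC, and 5.29, 5.36 and 26.5 CPM in WT skin. Every lesion library lay below every WT skin library, those of KO papilloma 1 and 2 among them. Other regulators of the list went the other way. Ovol1 was at 237 and 259 CPM in KO SCC and 243, 121 and 176 CPM in KO papilloma. In WT SCC it was at 63.9 to 75.2 CPM and in WT skin at 40.5 to 48.1 CPM. Foxq1 was at 45.5 to 56.2 CPM in WT SCC and 16.1 to 22.8 CPM in WT skin.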

How the data were processed

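The values are the deposited counts of the authors, whole numbers per gene without normalization. Libraries were stranded and selected for poly(A) RNA, per the labels' protocols. HISAT2, StringTie and DESeq were used with mm10, per the submitters' processing notes, and those notes and the labels state no counting rule, strand setting or annotation. Features without a name, 1456 of 55988, held 0.115 to 0.496% of a library's counts and were left out.

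The 11 libraries were fitted together in 4 groups with edgeR 4.0.16 in R 4.3.3 (default filter on low counts, TMM normalization with factors 0.816 to 1.24, quasi-likelihood test, two-sided), and p-values were adjusted by Benjamini-Hochberg over 22371 genes, with a threshold of 0.05. The common biological coefficient of variation was 36.6%. The procedure was tested on simulated data. The alternatives were RLE size factors, no filter, DESeq2 1.42.0, a replicate block, only the groups compared, a summed count of at least 200, and leaving out libraries. Positions, lengths and coding sequences came from GENCODE M21 on GRCm38, matched by symbol for all 80 members, and promoters from RefSeq, the first start listed for a gene. KAP classes rest on cut-offs of codon shares, not on family names. Genes named are all keratins, the 6 most counted KAPs of each class, and members called in a comparison, of which the clearest were picked after their values were seen. The members and all gene lists were chosen with earlier results of these data known.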

Additional observations from a re-analysis of the deposited data

How the results depend on the processing

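Most counts of calls moved with the settings. Members called higher in KO SCC than in WT SCC, 2 as reported, were 6 without the filter on low counts, 4 by DESeq2, 5 with only these 2 groups fitted, 1 with a summed count of at least 200, and 1 whichever library was left out. The 1 member higher in KO SCC than in WT skin (Krtap13) became 0 with only these groups, 0 with a summed count of at least 200, 2 without both WT skin 2 and 3, and 0 to 1 with 1 library left out; the 53 lower ones became 12 with only these groups, 2 without both WT skin 2 and 3, and 1 to 78 with 1 library left out. The 17 members lower in KO papilloma than in WT skin became 72 without the filter, 5 by DESeq2, 6 with only these groups, 1 without both WT skin 2 and 3, and 2 to 64 with 1 library left out, and the 1 higher became 3 without both and 0 to 1 with 1 left out. The 79 members lower in WT SCC than in WT skin became 16 with only these groups, 8 without both WT skin 2 and 3, and 56 to 79 with 1 library left out. In KO SCC against KO papilloma 19 members were called lower without the filter and 0 as reported and with any library left out. The cause was not tested.

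Groups shared replicate numbers, and same-numbered libraries did not deviate together (r from -0.379 to 0.116), which cannot show whether libraries were paired. The numbers used are those of the titles, and the sample descriptions number the KO SCC libraries otherwise. With the replicate block 1 member was higher in KO SCC than in WT SCC, 0 higher and 5 lower in KO SCC than in WT skin, 2 lower in KO papilloma than in WT skin and 48 lower in WT SCC than in WT skin.

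Of the 18 genes followed singly, fitted log2 fold changes turned round only without both WT skin 2 and 3, in none past the threshold: against WT skin they were then 0.57 for Krt28, 3.87 for Krtap4-1, 7.87 for Krtap6-5, 7.05 for Krtap19-9b and 6.97 for Krtap9-1 in KO papilloma, and 1.51 for Krtap4-1, 5.06 for Krtap6-5, 4.87 for Krtap19-9b and 5.21 for Krtap9-1 in KO SCC. The KAPs among them had at most 1 count in WT skin 1, so these sizes depend on the fit's prior count. DESeq2 gave no adjusted p for 7 members in KO SCC against WT SCC and 17 in KO SCC against KO papilloma. Where a setting left 1 library in a group, that library was assumed to vary like those of the other groups.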

Other observations

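Other compartments of the follicle and skin were read as lists in the same libraries. Of 9 genes of the bulge, the follicle's stem cell niche, 9 were called lower in KO SCC, 8 in KO papilloma and 7 in WT SCC, each against WT skin by edgeR's test, and none higher. Beside these and the lists below, 24.3%, 22.4% and 23.6% of all genes were called lower in the 3 comparisons, and 20.5%, 17.1% and 16.9% higher. The bulge genes summed to 343 and 377 CPM in KO SCC, 380 to 487 in KO papilloma, 469 to 547 in WT SCC and 1330 to 1520 in WT skin. The 3 skin libraries, which differed most in hair genes, were thus alike in this sum. Krt15 was its largest part in WT skin, at 857, 771 and 665 CPM in WT skin 1, 2 and 3. Lhx2 (8.44, 11.6 and 29.5 CPM), Sox9 (26.6, 35.1 and 67.8) and Nfib (91.8, 143 and 218) rose over the same libraries, and the others did not rise steadily. Of 8 dermal papilla genes, 6, 5 and 6 were called lower in the same 3 comparisons and 1 higher in each. Of 8 melanocyte genes 7, 3 and 4 were called lower, with sums of 29.4 and 5.31 CPM in KO SCC 1 and 2, 29.8, 52.5 and 57.2 in KO papilloma, 26.8 to 34.3 in WT SCC and 41.7, 68.2 and 323 in WT skin, the last in the library with the most hair gene counts. Of 8 sebaceous gland genes 5, 4 and 6 were called lower, with sums of 427 to 708 CPM in the lesions and 1130 to 1570 in WT skin. Acsbg1, Dgat2 and Mgst1 were the largest of the list in every lesion, at 76.5 to 258 CPM. Elovl3, Awat1, Awat2, Far2 and Soat1 varied more between lesions and were lowest in KO SCC 1. Far2 was at 3.81 and 42.1 CPM in KO SCC 1 and 2, and at 76.7, 83.3 and 17.6 CPM in KO papilloma. What these differences have to do with the hair genes was not tested.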
